A study of Rattus norvegicus with 18 samples.

Results

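Toll-like receptor and NF-kB signaling was described in the rat cerebral cortex after subarachnoid hemorrhage (SAH) through 10 genes, chosen by symbol from the 30735 genes of the count table. They were the receptors Tlr2, Tlr4 and Tlr7, the co-receptor Cd14, the adaptor Myd88, the NF-kB subunits Nfkb1, Nfkb2 and Relb, and the inhibitors Nfkbia and Tnfaip3. All 10 passed the filter on low counts, as did 18444 genes in all. Adult Sprague Dawley rats received either sham surgery, without perforation of the vessel, or SAH by endovascular perforation, in which a filament pierces an intracranial artery from within. Cortex was taken 1 day (SAH 1d) or 7 days (SAH 7d) after SAH, and each group held 6 rats with 1 RNA-seq library each. The time at which sham cortex was taken is not given, and the same sham group was compared with both SAH times. The study's methods name pentobarbital as the anesthetic for the surgery, and no other drug and no transgene is named for any group. The deposited protocol describes bilateral cortex, whereas the study's methods describe the cortex of the operated side.

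Toll-like receptors recognize microbial molecules and molecules released by injured tissue, and Tlr4 works with Cd14 to bind lipopolysaccharide and related ligands. Most of them pass the signal through Myd88 to kinases that release NF-kB, a family of dimeric transcription factors, from its inhibitors. NF-kB then drives genes of cytokines, chemokines and adhesion molecules, and also drives its own subunits Nfkb2 and Relb and its inhibitors Nfkbia and Tnfaip3, which end the response. In brain, microglia carry most of the receptors, and blood-borne myeloid cells that enter after injury carry them too.

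Because NF-kB acts on several of its own genes, the promoter windows of the members were read from RefSeq (rat build GRCr8), from 250 bases before to 50 bases after each annotated start. A window was found for 9 of the 10 members, and Relb was without one. The NF-kB consensus, a site of 10 bases searched on both strands, was present in 5 of the 9 windows, against 7.51% of 33469 rat promoter windows of the same length. A stricter kB core, made of GGG, any 2 bases and TTTCC, was present in 4 of the 9, against 1.53% of all windows, and each of its matches lay on a consensus match. TGANTCA, with N any base, was searched as a loose form of the AP-1 site. It matched in the windows of Myd88 and Nfkb2 (TGAATCA in both) and Tnfaip3 (TGACTCA), against 7.33% of all windows. The interferon-stimulated response element core, GAAA and GAAA with any 2 bases between them, was found in that of Myd88 (3.92%). Of the 5 genes with a consensus match, 4 were higher at 1 day. So were Cd14, Myd88 and Tlr4, whose windows held none, and whether a match went with the rise was not tested. The 5 windows with a consensus match are printed below, with the matched bases in capitals. They run 5′ to 3′ on the strand of the gene.
Nfkb2, chr1:255108124-255108423, plus strand: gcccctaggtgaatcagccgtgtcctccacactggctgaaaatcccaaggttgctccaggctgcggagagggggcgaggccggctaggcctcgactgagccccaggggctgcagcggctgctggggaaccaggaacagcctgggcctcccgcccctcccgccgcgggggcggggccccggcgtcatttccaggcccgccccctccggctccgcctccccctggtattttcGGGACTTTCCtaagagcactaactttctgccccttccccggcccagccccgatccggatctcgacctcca
Nfkbia, chr6:78597023-78597322, minus strand: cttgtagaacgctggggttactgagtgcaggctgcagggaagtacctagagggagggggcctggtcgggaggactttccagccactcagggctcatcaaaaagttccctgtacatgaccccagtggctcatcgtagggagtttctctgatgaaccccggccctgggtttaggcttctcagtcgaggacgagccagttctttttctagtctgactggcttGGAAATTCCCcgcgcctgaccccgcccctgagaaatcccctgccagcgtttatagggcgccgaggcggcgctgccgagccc
Tnfaip3, chr1:15543930-15544229, minus strand: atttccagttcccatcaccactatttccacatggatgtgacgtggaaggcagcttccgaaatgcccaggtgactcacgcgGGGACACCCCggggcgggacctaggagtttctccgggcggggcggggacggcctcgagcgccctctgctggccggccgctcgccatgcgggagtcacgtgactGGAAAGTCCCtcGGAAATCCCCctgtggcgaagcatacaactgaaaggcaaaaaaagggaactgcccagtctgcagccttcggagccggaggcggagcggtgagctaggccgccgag
Nfkb1, chr2:226805413-226805712, minus strand: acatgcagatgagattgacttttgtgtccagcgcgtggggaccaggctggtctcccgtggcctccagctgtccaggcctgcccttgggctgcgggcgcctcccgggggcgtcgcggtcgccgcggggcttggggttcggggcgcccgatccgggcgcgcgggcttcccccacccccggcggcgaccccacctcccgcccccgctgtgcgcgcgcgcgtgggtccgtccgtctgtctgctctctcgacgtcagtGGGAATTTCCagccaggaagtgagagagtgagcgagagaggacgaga
Tlr2, chr2:171504508-171504807, minus strand: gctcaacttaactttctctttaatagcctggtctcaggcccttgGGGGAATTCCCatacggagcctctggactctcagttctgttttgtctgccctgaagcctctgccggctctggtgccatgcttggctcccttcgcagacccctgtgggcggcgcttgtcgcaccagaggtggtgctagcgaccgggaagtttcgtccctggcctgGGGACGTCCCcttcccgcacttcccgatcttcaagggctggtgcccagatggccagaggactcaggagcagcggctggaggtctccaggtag
In Nfkb2 the match lay 20 to 11 bases before the start, and in Nfkbia 31 to 22 bases before it on the opposite strand. Tnfaip3 held 3 matches, a pair of them close together on the opposite strand at 67 to 58 and 55 to 46 bases before the start. The match of Nfkb1 lay just inside the transcript, and 2 of the 3 matches of Tlr2 overlapped each other. These are matches of letters only, and binding was not measured.

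Total counts ranged from 27270026 to 38271014 per library. As genes that mark cortex, 8 neuron markers such as Snap25 summed to between 2167 and 8950 CPM (read counts set to a common library total, with TMM scaling), and red cell markers did not pass the test in any comparison. The libraries SAH 1d-3 and SAH 7d-5 stood apart. SAH 7d-5 had the lowest neuron sum (2167 CPM), and its monocyte and macrophage markers summed to 8120 CPM against 263 CPM or less in the other SAH 7d libraries. The mean log2 CPM of these 6 markers differed less, at 5.75 against 3.44 or less. The macrophage sum was thus carried mainly by its most abundant genes. The T cell markers of SAH 7d-5 summed to 318 CPM, against 37.6 CPM or less in its group. The mean log2 CPM of these 6 genes was 2.74 in SAH 7d-5 and -0.035 or less in the rest of its group. The T cell markers thus stood apart in the mean over the list as well as in the sum. SAH 1d-3 had monocyte and macrophage markers at 510 CPM and neutrophil markers at 72.1 CPM, against 132 and 15.5 CPM or less in its group. Choroid plexus markers stood out in SAH 1d-6 (1073 CPM) and SAH 1d-4 (745 CPM), neither of which was the highest for a member. SAH 1d-3 was the highest SAH 1d library for all 10 members, and SAH 7d-5 the highest SAH 7d library for 9. Member results that rest on them are given with and without them.

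**Figure D1:**
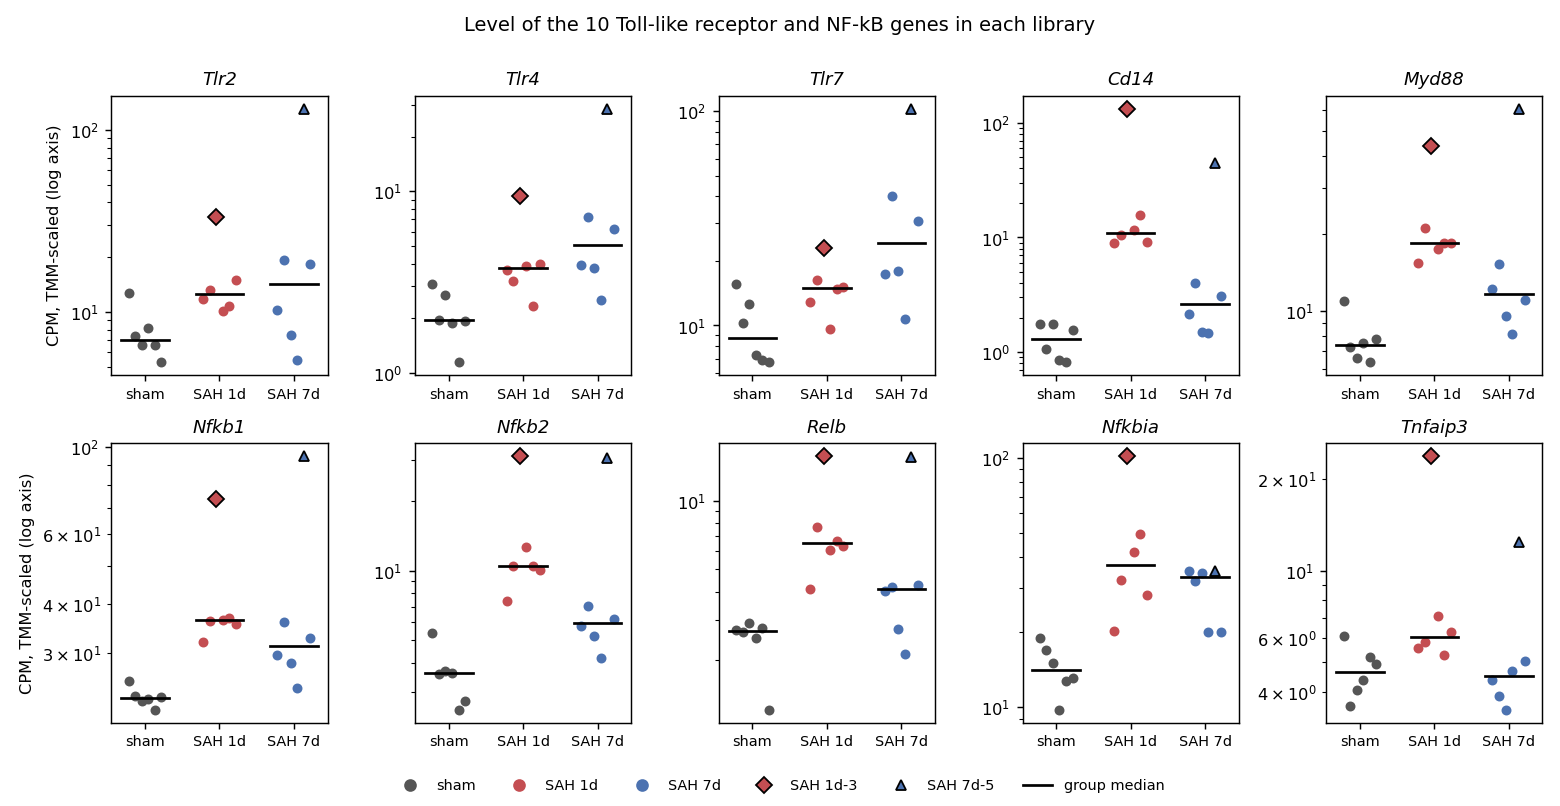
Level of each of the 10 genes in CPM (log axis) in the 18 libraries, with 6 libraries per group and a line at the group median. SAH 1d-3 (diamond) and SAH 7d-5 (triangle) lie above the rest of their groups in most panels. Cd14, Myd88, Nfkb1, Nfkb2, Relb and Nfkbia are higher in all SAH 1d libraries than in all sham libraries.

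At 1 day after SAH, 8 of the 10 genes were higher than in sham at an edgeR adjusted p under 0.05, and none was lower. Over all tested genes, 14.9% were higher and 10.5% lower by the same test, or 25.4% in either direction. The median log2 fold change of the 10 genes was 1.28, against 0.01 over all tested genes. Of these, 6 genes also changed by at least 2-fold and were differentially expressed genes (DEGs), against 5.57% of all tested genes that were higher DEGs. For 6 of the 10 genes the lowest SAH 1d library lay above the highest sham library, against 8.32% of all tested genes. In bulk tissue, more cells of a type and more RNA per cell cannot be told apart.

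Among the receptors, the change was largest for Cd14, which hands lipid ligands to Tlr4. Cd14 ranged from 0.815 to 1.77 CPM in sham (median 1.30, 25 to 53 counts) and from 9.02 to 133 CPM in SAH 1d (median 11.04). The groups did not overlap, and SAH 1d-3 alone lay at 12.7 times the median of the other 5. The log2 fold change of Cd14 was 4.59 (SE 0.78, n = 6 per group, edgeR adjusted p = 0.00159). In 1 fit of the 16 libraries that remain when SAH 1d-3 and SAH 7d-5 are removed, it was 3.11 (SE 0.29, adjusted p = 1.75e-06).

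Tlr2, the receptor of bacterial lipoproteins, ranged from 5.29 to 12.7 CPM in sham (median 7.02) and from 10.1 to 33.2 CPM in SAH 1d (median 12.5). The groups overlapped through sham-1, the highest sham library. Tlr2 had a log2 fold change of 1.00 (SE 0.30, adjusted p = 0.0265), just under the DEG limit. Tlr4 ranged from 1.14 to 3.07 CPM in sham (median 1.94) and from 2.32 to 9.48 CPM in SAH 1d (median 3.76), also with overlap, and its log2 fold change was 1.05 (SE 0.33, adjusted p = 0.0319). Both calls depended on single libraries. Leaving out sham-2, sham-3, sham-5 or sham-6 in turn moved Tlr2 past the threshold (adjusted p 0.0514 to 0.0591), and leaving out sham-2, sham-4, sham-5 or sham-6 did so for Tlr4 (0.0613 to 0.0662), with folds of similar size. The other 8 of the 12 fits that each left out 1 library kept each call, among them the fit without SAH 1d-3. In the 16-library fit, which also holds SAH 7d libraries, the log2 fold change was 0.64 for Tlr2 (adjusted p = 0.103) and 0.69 for Tlr4 (adjusted p = 0.0672).

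Tlr7, an endosomal receptor of single-stranded RNA, ranged from 6.73 to 15.7 CPM in sham (median 8.76) and from 9.58 to 22.9 CPM in SAH 1d (median 15.0). The log2 fold change of 0.61 (SE 0.24) did not pass the test (adjusted p = 0.0776). Without sham-1, the highest sham library for 9 of the 10 genes, it was 0.79 and passed (adjusted p = 0.0245), and without SAH 1d-4 it was 0.72 (adjusted p = 0.0442).

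Myd88, the adaptor shared by most Toll-like receptors and the interleukin-1 receptor, ranged from 6.35 to 10.99 CPM in sham (median 7.41) and from 15.3 to 43.8 CPM in SAH 1d (median 18.5). All 6 SAH 1d libraries lay above all sham libraries. Myd88 had a log2 fold change of 1.52 (SE 0.24, adjusted p = 0.00116), and it was 1.22 (SE 0.16, adjusted p = 3.83e-05) in the 16-library fit.

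All 3 NF-kB subunits rose at 1 day, and the SAH 1d and sham ranges did not overlap for any of them. Nfkb1, which encodes p105 and p50, ranged from 21.6 to 25.5 CPM in sham (median 23.1) and from 32.0 to 73.6 CPM in SAH 1d (median 36.4). Nfkb2, which encodes p100 and p52 of the alternative pathway, ranged from 2.51 to 5.38 CPM in sham (median 3.61) and from 7.38 to 31.2 CPM in SAH 1d (median 10.5). Relb, the partner of p52, ranged from 1.22 to 2.92 CPM in sham (median 2.69) and from 4.10 to 15.7 CPM in SAH 1d (median 6.49). Sham libraries lay close together for Nfkb1, the most even of the 10 genes in sham. The log2 fold change was 0.83 (SE 0.18, adjusted p = 0.00554) for Nfkb1, under the DEG limit. It was 1.92 (SE 0.33, adjusted p = 0.00156) for Nfkb2 and 1.64 (SE 0.31, adjusted p = 0.00259) for Relb. In the 16-library fit these were 0.61, 1.51 and 1.32, all 3 passed, and 6 of the 10 genes were higher in that fit, against 16.2% of all tested genes.

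Of the 2 inhibitors, Nfkbia passed the test at 1 day and Tnfaip3 did not, and the difference between them was not tested. Nfkbia, the IkB-alpha protein that holds NF-kB in the cytoplasm, ranged from 9.76 to 19.0 CPM in sham (median 14.1) and from 20.3 to 102 CPM in SAH 1d (median 37.1), with no overlap. Nfkbia had a log2 fold change of 1.65 (SE 0.33, adjusted p = 0.00396). Tnfaip3, the deubiquitinase A20 that shuts off signaling upstream of NF-kB, ranged from 3.59 to 6.08 CPM in sham (median 4.65) and from 5.27 to 23.8 CPM in SAH 1d (median 6.07). Outside SAH 1d-3 its highest SAH 1d value was 7.10 CPM, and the groups overlapped. Its log2 fold change of 0.92 (SE 0.36) did not pass (adjusted p = 0.0747), and in the 16-library fit it was 0.35 (adjusted p = 0.0734).

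**Figure D2:**
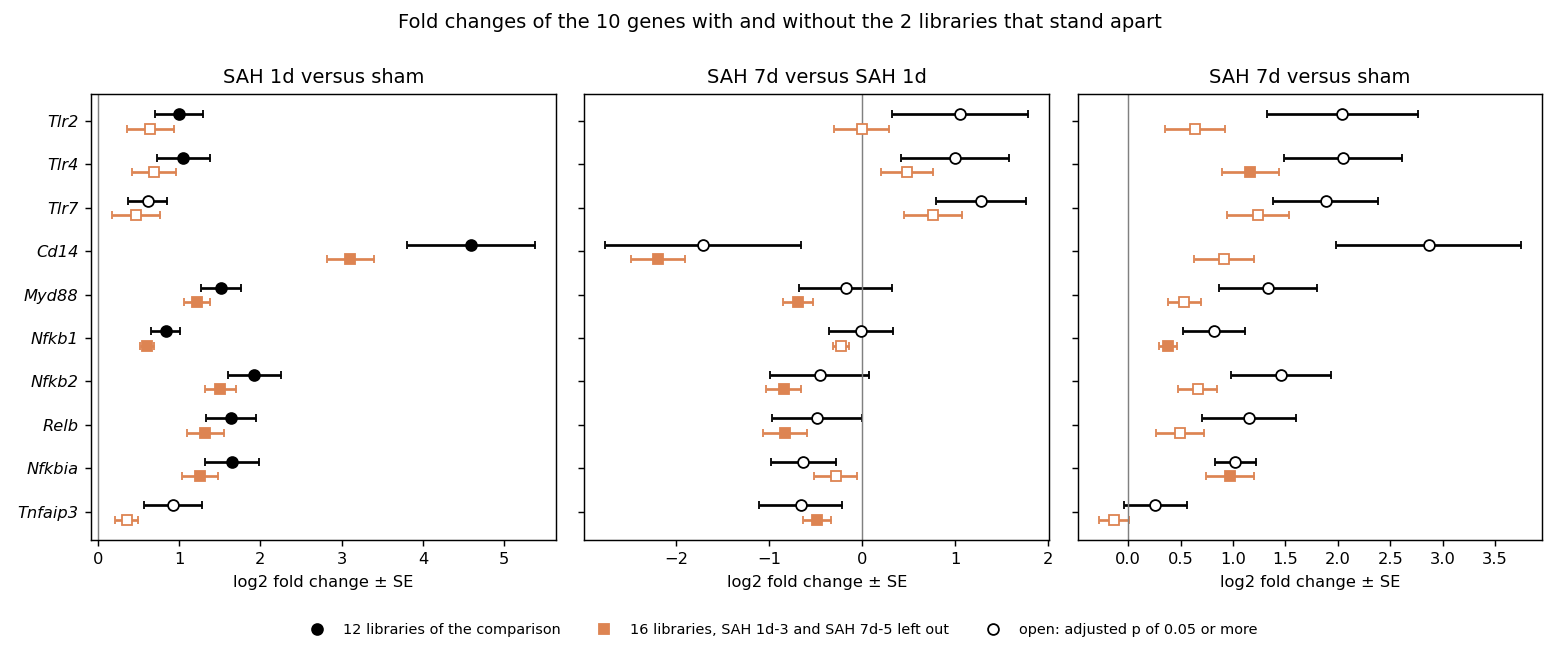
Log2 fold change with its SE for the 10 genes in each comparison, from the 12 libraries compared (circles) and from the 16-library fit that leaves out SAH 1d-3 and SAH 7d-5 (squares). Filled symbols have an adjusted p under 0.05. The SAH 7d versus SAH 1d values are all open with every library, and Cd14, Myd88, Nfkb2, Relb and Tnfaip3 are filled and below 0 without the 2 libraries.

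From 1 to 7 days, none of the 10 genes passed the edgeR test with all 12 libraries, against 1.37% of all tested genes (0.282% higher and 1.08% lower). At an unadjusted p under 0.05 there was 1, Tlr7, against 14.7% of all tested genes, and limma voom with quality weights called 4 lower (Cd14, Myd88, Nfkb2 and Relb), against 8.37% of all tested genes. DESeq2 called none of the 5 genes to which it gave an adjusted p. The median log2 fold change was -0.32, against 0.03 over all tested genes. The 3 receptors Tlr2, Tlr4 and Tlr7 had positive values and the other 7 genes negative ones.

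Tlr7 ranged from 10.7 to 103 CPM in SAH 7d (median 24.3), and outside SAH 7d-5 its highest value was 40.2 CPM. Its log2 fold change from SAH 1d was 1.27 (SE 0.48, adjusted p = 0.229), and 0.76 (SE 0.31, adjusted p = 0.111) in the 16-library fit. The SAH 7d libraries spread over and above the SAH 1d range.

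Tlr4 ranged from 2.51 to 28.6 CPM in SAH 7d (median 5.07), with a log2 fold change of 1.00 (SE 0.58, adjusted p = 0.456). The value of Tlr4 was 0.088 (SE 0.36, adjusted p = 0.904) without SAH 7d-5 and 0.48 (SE 0.28, adjusted p = 0.283) in the 16-library fit. Tlr2 ranged from 5.43 to 131 CPM (median 14.2), and SAH 7d-5 lay at 12.8 times the median of the other 5. Its log2 fold change was 1.05 (SE 0.73, adjusted p = 0.54), and in the 16-library fit it was -0.01 (SE 0.30). Without SAH 7d-5 alone it was -0.38 (adjusted p = 0.566), so the positive value of Tlr2 rested on that library.

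Cd14 ranged from 1.48 to 3.99 CPM in 5 SAH 7d libraries and reached 44.3 CPM in SAH 7d-5. All 5 lay below every SAH 1d library and SAH 7d-5 lay above 5 of the 6. The log2 fold change was -1.71 (SE 1.05, adjusted p = 0.482) with all libraries. It was -3.70 (adjusted p = 0.0219) without SAH 7d-5, -0.21 (adjusted p = 0.942) without SAH 1d-3, and -2.19 (SE 0.29, adjusted p = 0.000127) in the 16-library fit.

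Myd88 ranged from 8.18 to 15.2 CPM in 5 SAH 7d libraries and was 61.0 CPM in SAH 7d-5. Nfkb2 ranged from 4.20 to 7.01 CPM in the same 5 and was 30.7 CPM in SAH 7d-5, and Tnfaip3 from 3.49 to 5.06 CPM with 12.4 CPM in SAH 7d-5. For Cd14, Myd88, Nfkb2 and Tnfaip3, or 4 of the 10 genes, all 5 SAH 7d libraries other than SAH 7d-5 lay below all 6 SAH 1d libraries, against 5.34% of all tested genes. With all 12 libraries none of the 4 other genes that fell in fits without SAH 7d-5 passed the edgeR test. Their log2 fold changes were then -0.18 (SE 0.50, adjusted p = 0.908) for Myd88, -0.46 (SE 0.53, adjusted p = 0.739) for Nfkb2, -0.48 (SE 0.48, adjusted p = 0.69) for Relb and -0.66 (SE 0.45, adjusted p = 0.529) for Tnfaip3. Leaving out SAH 7d-5 alone, 4 genes were lower at an adjusted p under 0.05 (Cd14, Myd88, Nfkb2 and Relb), against 5.19% of all tested genes that were lower. In the 16-library fit 5 genes were lower, with Tnfaip3 added, against 8.12% of all tested genes. There the log2 fold change was -0.69 (SE 0.16) for Myd88, -0.85 (SE 0.19) for Nfkb2, -0.83 (SE 0.24) for Relb and -0.49 (SE 0.15) for Tnfaip3. Removal of these libraries was chosen after their values were seen.

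Nfkb1 and Nfkbia did not pass in any of these fits. Nfkb1 ranged from 24.6 to 94.7 CPM in SAH 7d (median 31.2), and its log2 fold change from SAH 1d was -0.02 (SE 0.34) with all libraries and -0.23 (SE 0.09, adjusted p = 0.0924) in the 16-library fit. Nfkbia ranged from 20.0 to 35.3 CPM (median 33.2), with -0.63 (SE 0.34, adjusted p = 0.426) and -0.28 (SE 0.23). Nfkbia was the only member for which SAH 7d-5, at 35.3 CPM, did not stand above its group.

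Against sham, none of the 10 genes passed the edgeR test at 7 days, as none of all tested genes did (0%). At an unadjusted p under 0.05, 9 of the 10 were higher, all but Tnfaip3, against 11.7% of all tested genes that were higher and 15.4% in either direction. The median log2 fold change of the 10 genes was 1.40, against -0.00 over all genes. DESeq2 called 3 of them higher (Tlr4, Tlr7 and Nfkbia), against 2.05% of the genes it gave an adjusted p for, and limma voom called none. DESeq2 gave no adjusted p to Cd14 and Nfkb2.

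Nfkbia was the only one of the 10 whose groups did not overlap at 7 days, against 0.922% of all tested genes. Its lowest SAH 7d library was at 20.0 CPM and its highest sham library at 19.0 CPM, so the margin was narrow. The log2 fold change was 1.02 (SE 0.20, adjusted p = 0.214), and it stayed between 0.93 and 1.12 when each library was left out in turn. In the 16-library fit it was 0.97 (SE 0.23, adjusted p = 0.0466).

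Tlr4 and Tlr7 had log2 fold changes of 2.05 (SE 0.56, adjusted p = 0.214) and 1.89 (SE 0.50, adjusted p = 0.214) against sham at 7 days. In the 16-library fit these were 1.165 (SE 0.27, adjusted p = 0.0467) and 1.24 (SE 0.30, adjusted p = 0.0508). Nfkb1 was the third gene to pass there, with 0.38 (SE 0.08, adjusted p = 0.0392), so that 3 of the 10 genes were higher, against 1.12% of all tested genes. For Tlr2, Cd14, Myd88, Nfkb2 and Relb the SAH 7d and sham ranges overlapped. Their log2 fold changes fell from 2.04, 2.87, 1.33, 1.46 and 1.15 with all libraries to 0.64, 0.91, 0.53, 0.66 and 0.49 in the 16-library fit. Tnfaip3 had 0.26 (SE 0.30) with all libraries and -0.14 (SE 0.14) without the 2.

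Levels of different genes were compared in FPKM, which corrects for transcript length. In sham, the inhibitor Nfkbia had the highest median (8.42 FPKM), followed by Nfkb1 (5.59) and Myd88 (2.88), and Cd14 (0.718) and Tlr4 (0.545) had the lowest. Each gene overlapped the next in this order except Nfkb1, whose libraries all lay above those of Myd88. In SAH 1d, Nfkbia (23.9 FPKM) and Nfkb1 (9.44) still led, and Cd14 had moved from place 9 to place 4 (6.58). In SAH 7d, Tlr7 (5.35 FPKM) and Tlr2 (5.18) came after Nfkb1 (7.65), and Cd14 was again at place 9 (1.45). After SAH every gene overlapped its neighbour in the order.

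Markers of the cells that could carry these genes were measured beside them. The 8 microglia markers summed to between 280 and 501 CPM in sham (median 317), between 343 and 403 CPM in SAH 1d (median 381), and between 351 and 2569 CPM in SAH 7d (median 669). Within this list, 1 of 7 tested genes changed at 1 day, and it was lower: the purinergic receptor P2ry12 (log2 fold change -1.19, adjusted p = 0.0251). Tmem119 was higher in SAH 7d than in SAH 1d (1.56, adjusted p = 0.0123), and Siglech was at 0 in all sham libraries. Monocyte and macrophage markers summed to between 57.6 and 105 CPM in sham, and 3 of 6 were higher at 1 day, among them Lyz2 (1.40, adjusted p = 0.042) and Cd163 (1.23, adjusted p = 0.00317). Neutrophil markers summed to at most 6.37 CPM in sham and 2 of the 3 tested were higher at 1 day, S100a9 (3.98, adjusted p = 0.0213) and Csf3r (1.74, adjusted p = 0.00339), whereas the defining markers Mpo, Elane and Camp were near 0. Of 8 neuron markers 7 were lower at 1 day, and their sum ranged from 4638 to 5611 CPM in SAH 1d and from 5640 to 8950 CPM in sham. The part of these cells in the members' values was not tested.

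**Figure D3:**
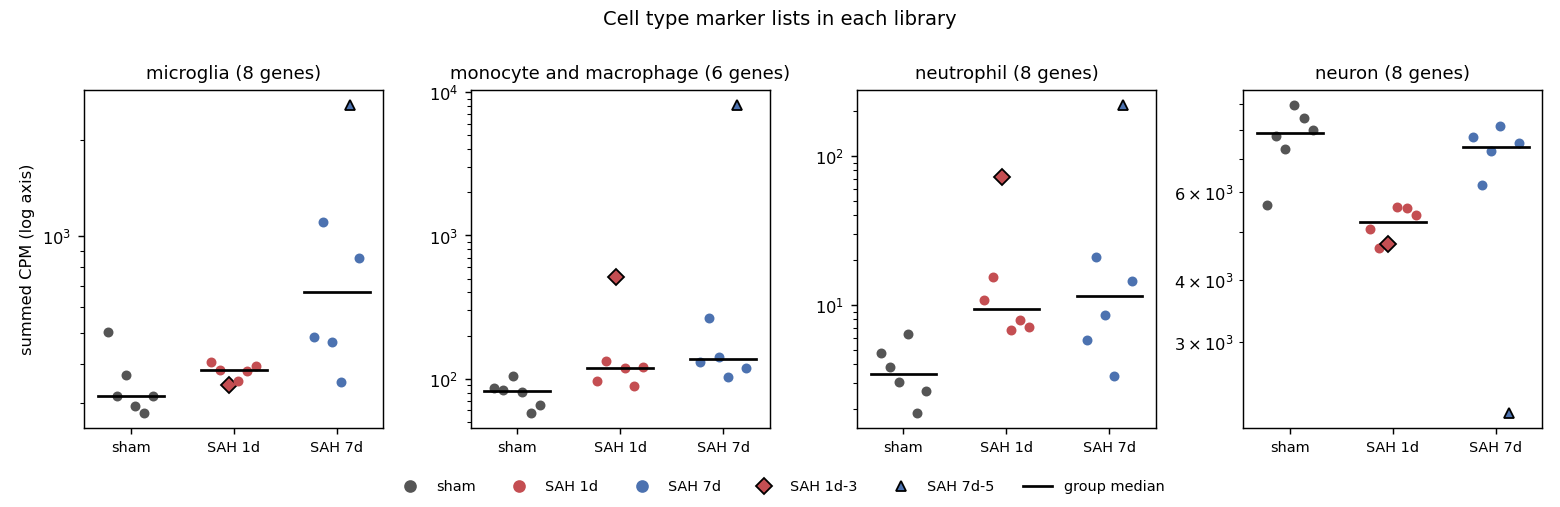
Summed CPM (log axis) of the microglia, monocyte and macrophage, neutrophil and neuron marker lists in the 18 libraries, with a line at each group median. The microglia sum is similar in sham and SAH 1d and spreads widely in SAH 7d, and SAH 7d-5 has the highest myeloid sums and the lowest neuron sum.

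Each member was also divided by the microglia sum of its library. This ratio was higher in every SAH 1d library than in every sham library for 6 of the 10 genes (Tlr2, Cd14, Myd88, Nfkb1, Nfkb2 and Relb), against 4.44% of all tested genes. From 1 to 7 days it was lower without overlap for 6 of the 10 (Cd14, Myd88, Nfkb1, Nfkb2, Relb and Tnfaip3), against 10.8% of all tested genes, with SAH 1d-3 and SAH 7d-5 included. Only 0.0325% of all tested genes had a higher ratio without overlap. The microglia sum had a median of 381 CPM in SAH 1d and 669 CPM in SAH 7d, so a lower ratio need not be a lower level. For Nfkb1 the difference in mean log2 ratio was -1.16, whereas its mean log2 CPM was 5.325 in SAH 1d and 5.19 in SAH 7d. Its edgeR log2 fold change was -0.02. The median ratio of Nfkb2 went from 0.0104 in sham to 0.0275 in SAH 1d and 0.0116 in SAH 7d. That of Myd88 went from 0.0228 to 0.0491 and 0.0220, and that of Cd14 from 0.00344 to 0.0302 and 0.00391. The SAH 7d and sham ratios overlapped for all 10 genes. Tlr7 had ratios of 0.0280, 0.0389 and 0.0361, and Tlr4 of 0.00614, 0.00958 and 0.00770, with overlapping ranges in every comparison. Nfkbia (0.0411, 0.102 and 0.0429) also overlapped in every comparison, and Tlr2 overlapped from 1 to 7 days. The microglia sum is itself a measured value that includes P2ry12, which was lower at 1 day.

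**Figure D4:**
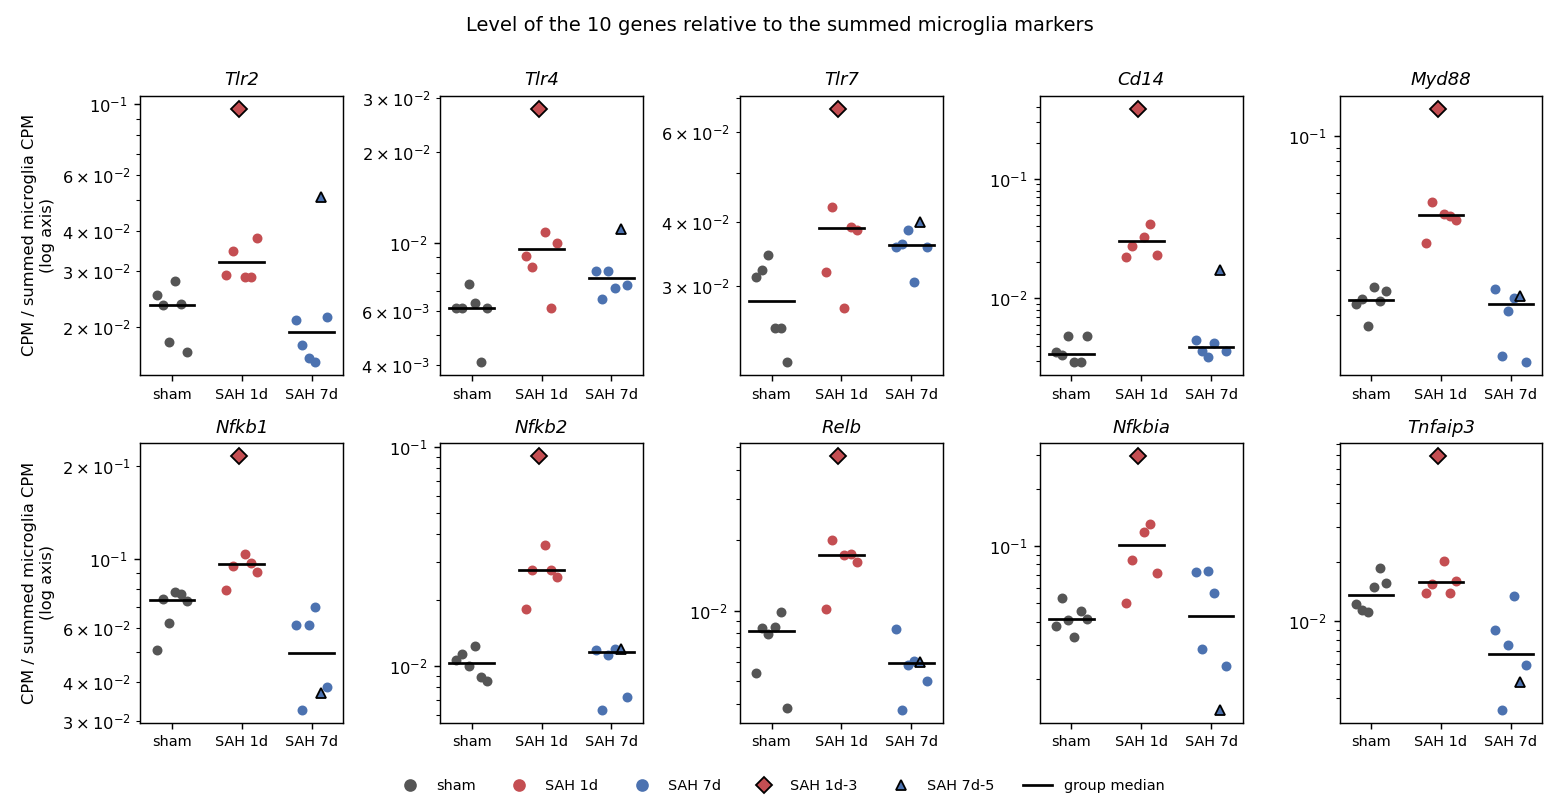
CPM of each of the 10 genes divided by the summed CPM of the microglia markers in the same library (log axis), with a line at each group median. Cd14, Myd88, Nfkb1, Nfkb2, Relb and Tnfaip3 have lower ratios in all SAH 7d libraries than in all SAH 1d libraries, whereas Tlr2, Tlr4, Tlr7 and Nfkbia overlap.

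The other genes of the pathway were read from 7 lists. Of 72 listed genes 63 were tested, and 38 of them changed at 1 day, 36 higher and 2 lower, beside the same 14.9% and 10.5% of all tested genes. Their median log2 fold change was 0.76. A total of 27 were DEGs, all higher, against 5.57% of all tested genes that were higher DEGs. Without SAH 1d-3, 39 of the 63 changed, and the call of Nfkbiz was lost. Over all tested genes that fit called 15.4% higher and 13% lower, and the 16-library fit 16.2% and 12.9%. The 16-library fit called 36, and the calls of Nfkbiz, Tlr6, Unc93b1 and Sarm1 were lost (adjusted p 0.0599, 0.0601, 0.115 and 0.0789).

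Among the other Toll-like receptors, 3 of 5 tested were higher at 1 day: Tlr1, a partner of Tlr2 (log2 fold change 3.78, SE 0.60, adjusted p = 0.00108), Tlr8 (1.77, SE 0.51, adjusted p = 0.0224) and Tlr6 (1.03, SE 0.29, adjusted p = 0.022). Tlr1 ranged from 0.0657 to 0.768 CPM in sham and from 2.45 to 16.7 CPM in SAH 1d. Without SAH 1d-3 the value was 3.14 for Tlr1 and 0.96 for Tlr8, and both passed. Tlr3, the receptor of double-stranded RNA that does not use Myd88, had 0.50 (SE 0.23, adjusted p = 0.123). Tlr5, Tlr11 and Tlr12 were too low to test, and Tlr10 and Tlr13 were not analysed here.

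Of the receptor partners, 4 of 6 were higher. They were Lbp, which transfers lipopolysaccharide to Cd14 (5.09, SE 0.91, adjusted p = 0.00203), Ly86 (1.78, SE 0.21, adjusted p = 0.000143), its partner Cd180 (1.02, SE 0.21, adjusted p = 0.00454), and Unc93b1, the chaperone of endosomal receptors (0.72, SE 0.19, adjusted p = 0.0174). Lbp was at most 1.17 CPM in sham and at least 4.21 CPM in SAH 1d, and without SAH 1d-3 its log2 fold change was 3.66. Ly96, the Tlr4 subunit MD-2, was not analysed here.

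Downstream, 5 of 12 adaptors and proximal kinases were higher, with the largest value for Irak2 (0.95, SE 0.29, adjusted p = 0.0281), a kinase recruited by Myd88, and further ones for Tirap (0.84), Traf6 (0.76) and Irak4 (0.68). None of them reached a log2 fold change of 1. Of the 6 genes listed for the IKK complex and related kinases, 2 were higher. They were Map3k14, the kinase that activates Chuk in the alternative pathway (0.68, SE 0.14, adjusted p = 0.00449), and Chuk itself (0.60, SE 0.15, adjusted p = 0.0119).

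Of the other NF-kB subunits and IkB family, 5 of 7 were higher. Bcl3, a nuclear IkB protein that binds p50 and p52, had the largest value (4.55, SE 0.58, adjusted p = 0.000246), at most 0.902 CPM in sham and at least 4.22 CPM in SAH 1d. The nuclear proteins Nfkbid (2.29, SE 0.27, adjusted p = 0.000146) and Nfkbiz (1.38, SE 0.45, adjusted p = 0.0405) were also higher, the latter with an adjusted p of 0.0554 without SAH 1d-3. The subunit Rel had 1.37 (SE 0.27, adjusted p = 0.00335), and Rela, which encodes p65, had 0.72 (SE 0.16, adjusted p = 0.00708) with no overlap of the groups.

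Of 10 other negative regulators, 3 were higher and 2 lower. Tnip2 (1.51, SE 0.30, adjusted p = 0.00362), Sigirr (1.29, SE 0.29, adjusted p = 0.00777) and Zc3h12a, a ribonuclease that degrades cytokine mRNA (1.26, SE 0.35, adjusted p = 0.0206), were higher. The deubiquitinase Cyld was lower (-0.51, SE 0.12, adjusted p = 0.00837), from 84.4 to 94.1 CPM in sham to between 42.1 and 75.9 CPM in SAH 1d, and Sarm1, which is expressed mainly in neurons, was lower as well (-0.26, SE 0.08, adjusted p = 0.0277).

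The NF-kB target genes had the highest share, with 14 of 17 higher at 1 day, all DEGs without overlap of the groups. The chemokine Ccl2 ranged from 0.0683 to 0.534 CPM in sham and from 8.08 to 250.2 CPM in SAH 1d (log2 fold change 7.56, SE 1.04, adjusted p = 0.000414). The endothelial adhesion molecule Sele ranged from 0.196 to 0.600 CPM in sham and from 2.60 to 57.6 CPM in SAH 1d (5.37, SE 0.87, adjusted p = 0.00119). Without SAH 1d-3 the log2 fold change was 5.89 for Ccl2 and 3.94 for Sele, and both passed. The fold itself, taken out of log2, moved by more than 1.5-fold in the same fit for the targets Birc3, Il1b, Bcl2a1 and Ier3 as well. Their log2 fold changes went from 3.33 to 2.54, 5.17 to 2.76, 2.35 to 1.33 and 1.71 to 1.00, and all still passed. The chemokine Cxcl1 and the cytokine Il6 were at or near 0 in sham, with at most 0.130 and 0.205 CPM, so their folds are not given, and in SAH 1d they reached 37.8 and 43.7 CPM in SAH 1d-3. Vcam1, Sod2 and Traf1 did not pass.

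**Figure D5:**
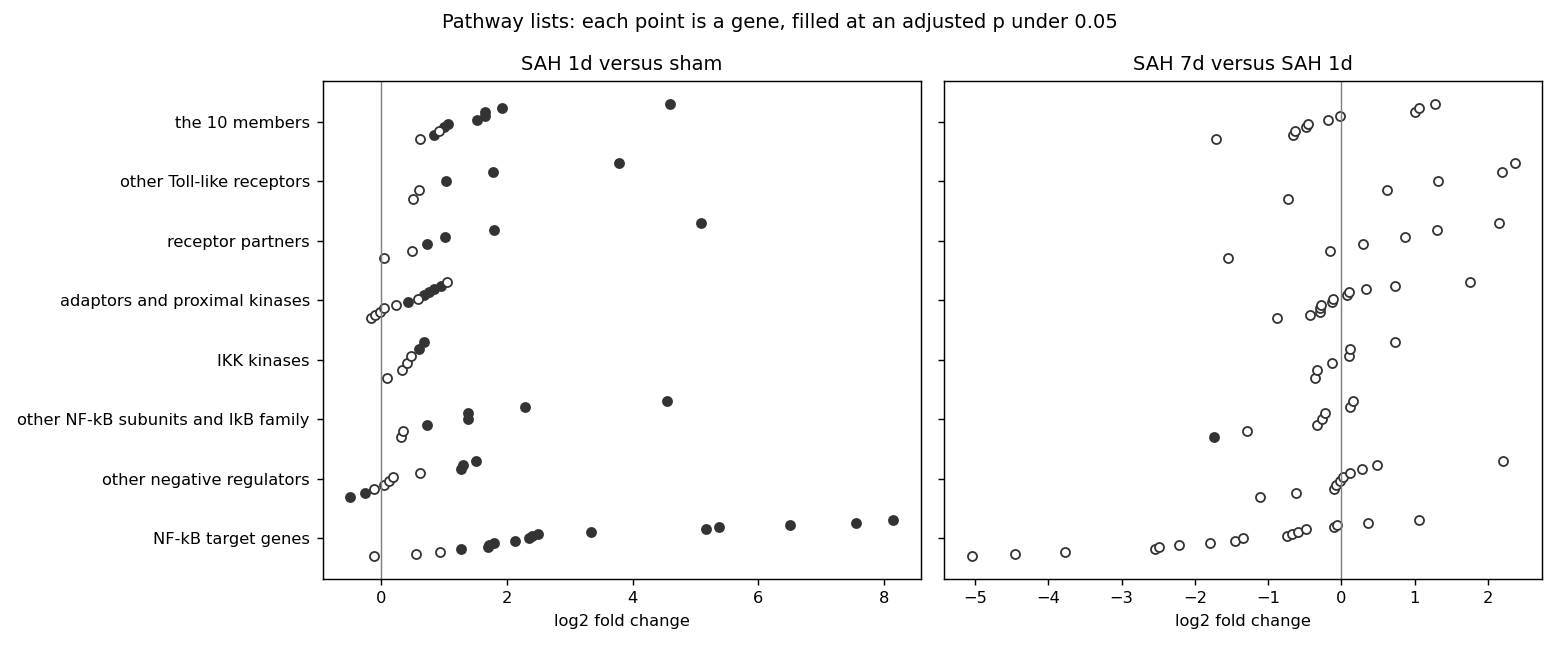
Log2 fold change of each tested gene of the 10 members and of the 7 pathway lists, for SAH 1d versus sham (left) and SAH 7d versus SAH 1d (right), with filled points at an adjusted p under 0.05. The target genes reach the highest values at 1 day, where 14 of 17 are filled, and only Nfkbid is filled on the right.

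From 1 to 7 days, 1 of the 63 pathway genes passed, beside 0.282% of all tested genes that were higher and 1.08% that were lower. It was Nfkbid (-1.74, adjusted p = 0.0171), which went from between 2.38 and 5.01 CPM to between 0.522 and 1.79 CPM. With all libraries Ccl2 had -3.77 (adjusted p = 0.236), Tnf -1.35 (adjusted p = 0.561), Birc3 -2.22 (adjusted p = 0.222) and Bcl3 -1.29 (adjusted p = 0.485). Without SAH 7d-5 there were 15 that passed, all lower, beside 5.19% of all tested genes that were lower. Among the 15 were Ccl2 (-7.48), Tnf (-3.88), Birc3 (-3.59) and Bcl3 (-2.90). In the 16-library fit there were 24, 22 lower and 2 higher, the latter Tnfaip8l2 (0.91) and Cyld (0.28), beside 8.12% and 7.17% of all tested genes. There Ccl2 had -5.80, Tnf -3.70, Birc3 -2.78 and Bcl3 -2.55. Against sham, none of the 63 passed at 7 days in edgeR, as none of all tested genes did. DESeq2 called 9, beside 2.05% of its genes that were higher. The 16-library fit called 5, beside 1.12% of all tested genes that were higher. The 5 were Tlr1 (2.37), Ly86 (1.84), Map3k8 (1.18), Unc93b1 (1.13) and Gadd45b (0.61).

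Tlr7 and Myd88 also feed the antiviral interferon response, of which 10 genes were listed. At 1 day 3 of them were higher, Rsad2 (2.69, SE 0.60, adjusted p = 0.00667), Oasl (2.31) and Isg15 (1.83). Sham-2 and sham-4 had summed interferon levels of 469 and 481 CPM, against a sham median of 94.7 CPM, so sham itself was uneven for this list. Without these 2 sham libraries the log2 fold change of Tlr2 at 1 day was 1.00 (adjusted p = 0.0927) and that of Tlr4 0.99 (adjusted p = 0.122).

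Across the 18 libraries, Nfkb1 (Spearman rho 0.959) and Nfkb2 (0.955) followed the mean of the other 9 members most closely and Tnfaip3 least (0.53). Over the 16 libraries Nfkb2 came first (0.95), Nfkb1 next (0.93) and Tnfaip3 last (0.32). Tlr7 came next to last (0.65, and 0.54 over 16). The genes outside all lists whose levels were most like the mean of the members over 18 libraries were Tpm4 (rho 0.98), Mvp (0.98), Myo1c (0.97), Hmox1 (0.97) and Hsd17b4 (0.97), with 0.96 for each over the 16 libraries. Hmox1 encodes the heme-degrading enzyme heme oxygenase 1. The libraries share tissue, depth and the group differences, so these are descriptions of likeness only.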

How the data were processed

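RNA from cerebral cortex of 18 rats (6 sham, 6 SAH 1d, 6 SAH 7d) was sequenced, 1 library per rat. The authors deposited raw read counts for each gene, from reads aligned to Rnor_6.0 (Ensembl release 95, per the study), with no normalization. The submitters' processing notes name fastp, HISAT2, DESeq2 1.16.1 and the build mm9, a mouse build, while the gene identifiers are those of rat. The FPKM values were deposited by the authors from the same alignments. How read pairs were counted, with or without strand, is not given in the sources used here.

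Genes were kept by filterByExpr over all 18 libraries. Each comparison used its 12 libraries in edgeR 4.0.16 (R 4.3.3) with TMM and the two-sided quasi-likelihood F test, with Benjamini-Hochberg adjustment over 18444 genes, of which 3100 are loci outside the annotation. A gene was called changed at an adjusted p under 0.05 and a DEG where it also changed 2-fold. Errors reflect differences among rats together with counting error. SEs were derived from the F statistic. Replicates of a group differed beyond sampling noise. Alternatives were DESeq2 1.42.0, limma 3.58.1 (voom and log2(FPKM + 1)), other filters, all libraries in 1 fit, replicate blocks and leaving libraries out. The tests were tested on simulated data. The members and lists were chosen with earlier results of these data known. All members were named, with up to 4 changed genes of each pathway list by size of fold. Promoters and motifs were read with Python 3.11.15 from RefSeq windows. Samples were grouped by the deposited descriptions.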

Additional observations from a re-analysis of the deposited data

Results flagged for a closer look

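Of 30 groups of 6 libraries (10 genes in 3 groups), 20 had a highest or lowest library whose gap to the nearest other library was large against the range of its group by Dixon's 95% criterion, which chance alone does in about 1 of 20 groups. The groups share libraries, so these are not independent events, and 18 of the 20 rest on SAH 1d-3 or SAH 7d-5.

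In SAH 1d-3, 9 of the 10 genes stood above their group, with 33.2 CPM for Tlr2, 9.48 for Tlr4, 133 for Cd14, 43.8 for Myd88, 73.6 for Nfkb1, 31.2 for Nfkb2, 15.7 for Relb, 102 for Nfkbia and 23.8 for Tnfaip3. In SAH 7d-5, 9 stood above their group, with 131 CPM for Tlr2, 28.6 for Tlr4, 103 for Tlr7, 44.3 for Cd14, 61.0 for Myd88, 94.7 for Nfkb1, 30.7 for Nfkb2, 15.6 for Relb and 12.4 for Tnfaip3. The gene that did not stand apart was Tlr7 in SAH 1d-3 and Nfkbia in SAH 7d-5.

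The other 2 were in sham. Myd88 was at 10.99 CPM in sham-1, against 7.85 CPM in the next library, and the microglia sum of sham-1 was also the highest in its group, at 501 CPM. Relb was at 1.22 CPM in sham-6, against 2.49 CPM in the next.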

How the results depend on the processing

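At 1 day against sham none of the 10 members changed direction under any alternative run. Cd14, Myd88, Nfkb2, Relb and Nfkbia passed in every fit that gave an adjusted p. The count of members ranged from 5 with all 18 libraries in 1 fit (25 pathway genes) to 10 with limma voom. Over all tested genes, 8.18% were higher and 5.17% lower in the 18-library fit, against 18.9% and 16.4% with limma voom. Leaving out 1 library gave 6 to 9 members and 33 to 39 pathway genes. Over all tested genes those fits called 11.4% to 15.4% higher and 7.66% to 13% lower. DESeq2 gave no adjusted p for Cd14 and Tnfaip3 in this comparison.

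From 1 to 7 days the calls depended on SAH 1d-3 and SAH 7d-5. Members called were 4 with limma voom and 5 without both libraries (in edgeR, DESeq2 and the 16-library fit), and leaving out 1 library gave 0 to 4. Over all tested genes, 6.37% were higher and 8.37% lower with limma voom, and 6.13% and 7.49% in edgeR without both. DESeq2 without both called 1616 genes higher and 1724 lower of the 21599 with an adjusted p. The 16-library fit called 7.17% higher and 8.12% lower. Leaving out 1 library called at most 3.18% higher and 5.19% lower. Pathway genes called were 9 with DESeq2, 24 with limma voom, 7 with all libraries in 1 fit, 2 on log2(FPKM + 1) and 3 on log2(FPKM + 0.1), and without both libraries 23 in edgeR, 27 in DESeq2 and 24 in the 16-library fit, with 0 to 15 when 1 library was left out. Over all genes, DESeq2 called 1.57% higher and 3.16% lower, and all libraries in 1 fit 1.28% and 2.94%. The shares were 0.233% and 2.31% on log2(FPKM + 1), and 0.215% and 2.36% on log2(FPKM + 0.1). Tlr2 turned negative with limma voom (-0.20), without SAH 7d-5 (-0.38), and without both libraries (-0.016 in edgeR, -0.0027 in DESeq2 and -0.0062 in the 16-library fit). With 1 library left out, Tlr2 ranged from -0.38 to 1.42, Myd88 from -1.003 to 0.13 and Nfkb1 from -0.48 to 0.22. Myd88 turned positive without SAH 1d-3, and the near-zero value of Nfkb1 did so without SAH 1d-3 (0.22) and without SAH 7d-1 (0.06), SAH 7d-2 (0.02), SAH 7d-3 (0.07), SAH 7d-4 (0.10) or SAH 7d-6 (0.05). At 7 days against sham, members called were 3 with DESeq2, 4 with DESeq2 without SAH 7d-5, and 3 in the 16-library fit, and pathway genes were 9, 9 and 5, with 1 in limma voom. Over all genes, DESeq2 called 2.05% higher and 0.229% lower, and without SAH 7d-5 419 higher and 103 lower of 17455. The 16-library fit called 1.12% higher and 0.0976% lower, and limma voom 2 genes higher of 18444. Leaving out 1 library gave 0 members and 0 pathway genes, and at most 3 of all tested genes. Tnfaip3 turned negative with limma voom (-0.038), without SAH 7d-5 (-0.14, and -0.15 in DESeq2) and in the 16-library fit (-0.14), and ranged from -0.14 to 0.37 with 1 library left out. The cause was not tested.

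Same-numbered libraries did not pair: correlations of their deviations ranged from -0.25 to 0.20, and 1 of 18 was above 0.1. With the replicate block, 8 members and 33 pathway genes changed at 1 day, and from 1 to 7 days 0 pathway genes did. Over all tested genes the block fit called 12.3% higher and 9.28% lower at 1 day. From 1 to 7 days it called 0.0163% higher and 0.141% lower. Depth limits Cd14, Tlr4 and Relb most, with 25 to 92 counts per sham library. The group labels of the libraries were taken as deposited.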
